A study of Homo sapiens with 6 samples.

Results

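The rows examined are those of 9 genes out of 59087 rows in the count table of a THUMPD2 knockout study. They were chosen by name. UPF1, UPF2, SMG1, SMG5, SMG6, RNPS1 and EIF4A3 are factors of nonsense-mediated decay, AC009065.4 is a long noncoding RNA annotated over the start of RNPS1, and HIC1 is a tumour suppressor gene whose end overlaps the end of SMG6. The cells were HEK293T, a line derived from human embryonic kidney, and their total RNA gave 6 libraries: 2 of wild type (WT), 2 of a first line labelled THUMPD2 KO#1 (KO1) and 2 of a second line labelled THUMPD2 KO#2 (KO2). No treatment is given, and the labels say neither how the lines were made, nor whether each is 1 clone, nor whether a group's libraries are separate cultures. The p-values therefore speak only to the spread among the libraries at hand, possibly a technical one, and with 1 WT line the loss of THUMPD2 cannot be told apart from other differences between a line and WT.

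Nonsense-mediated decay removes messenger RNAs on which a ribosome stops too early. The helicase UPF1 is loaded at such a stop, UPF2 joins it to the exon junction complex left behind by splicing, and the kinase SMG1 phosphorylates it. Phosphorylated UPF1 then recruits SMG6, an endonuclease that cuts the RNA near the stop, and the adaptor SMG5. EIF4A3 is the helicase core of the exon junction complex, and RNPS1 is a peripheral protein of that complex that stimulates decay. HIC1 encodes a zinc finger repressor of transcription, induced by p53 and often silenced by DNA methylation in tumours.

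Library totals ran from 7414339 to 8391143 counts. The row of the targeted gene, THUMPD2, held 1 and 2 reads for WT, 3 and 0 for KO1, and 0 and 1 for KO2, and does not check the labels. Where reads are counted on the opposite strand, it would not hold THUMPD2 messenger RNA at any depth, so its counts do not give the level of that gene in WT. The counts follow the strand opposite to the annotated gene for abundant transcripts. The GAPDH row held a mean of 168.5 reads, and AC006064.4, on the other strand over GAPDH, held 131100. Rows with at least 100 exonic bases over exons of the other strand made up 17.4% of the placed rows and held 85.1% of all counts. Among the markers of the line, LHX1 had no reads and PAX2 at most 5, while KO2 stood apart in others. VIM-AS1, over VIM, held 26970 and 28026 reads for WT, 23367 and 25010 for KO1, and 44695 and 47482 for KO2. KRT18 held 76 and 72 reads for WT, 75 and 115 for KO1, and 229 and 255 for KO2, and NEFM 37 and 23 for WT, 7 and 3 for KO1, and 229 and 186 for KO2. KRT8 held 3416 and 3680 reads for WT, 2560 and 2740 for KO1, and 4600 and 4914 for KO2. The part of this difference in the results for KO2 was not tested. The rows PTPRC, CD3E, PECAM1, VWF, COL1A1, DCN and ALB, named for markers of other cells, held at most 18 reads in any library. On this count table a symbol therefore names a row, and what is said of a row is not said of its gene. In such bulk samples fewer cells with a transcript and less of it per cell cannot be told apart.

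HIC1 and SMG6 are transcribed towards each other on chromosome 17 and overlap at their 3' ends. On GRCh38 (GENCODE v29), HIC1 (ENSG00000177374.12) runs from 2054154 to 2063241 on the plus strand and SMG6 (ENSG00000070366.13) from 2059839 to 2303771 on the minus strand. The last exon of SMG6, from 2059839 to 2062257, lies whole within the 3' untranslated part of HIC1. These 2419 shared bases are 22.9% of the SMG6 exons and 29.8% of the HIC1 exons. HIC1 makes up 90.3% of the opposite-strand overlap of SMG6. The rest is AC090617.2, with 3 reads at most in any library, and SRR. Where reads are counted on the opposite strand, the SMG6 row holds reads transcribed in the direction of HIC1 and the HIC1 row those transcribed in the direction of SMG6. The counts do not record where along a row the reads lie. The following 30 bases, at chr17:2061492-2061521, show what sharing means. Read on the minus strand they end the SMG6 reading frame, and on the plus strand they are part of HIC1. The capitals mark the SMG6 stop codon on each strand, and both sequences are from GENCODE v29 transcripts.
SMG6: gccttcctcacgtgggcccaggtgggcTGA
HIC1: TCAgcccacctgggcccacgtgaggaaggc

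RNPS1 and AC009065.4 lie head to head on chromosome 16. RNPS1 (ENSG00000205937.11) runs from 2253116 to 2268412 on the minus strand and AC009065.4 (ENSG00000260778.5) from 2268155 to 2273418 on the plus strand. They share 111 exonic bases, 2268155 to 2268265, which are 11.3% of the AC009065.4 exons and 1.29% of the RNPS1 exons. The other exons of AC009065.4 lie over no exon of the opposite strand, so the counts do not show which part of the row the reads came from. The first 30 bases of AC009065.4, at chr16:2268155-2268184, are given on both strands, with the capitals marking its annotated first 3 bases.
AC009065.4: GCGcagcgatgacgtaaacgcctggcccaa
RNPS1: ttgggccaggcgtttacgtcatcgctgCGC

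**Figure D1:**
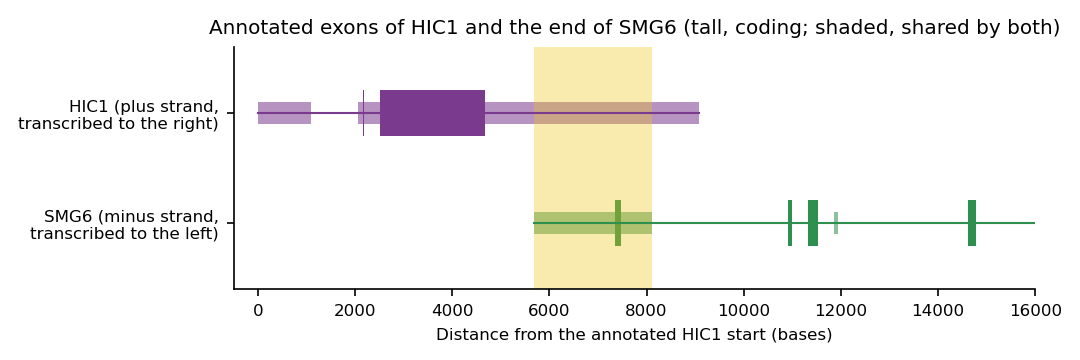
Annotated exons of HIC1 and of the end of SMG6, by distance in bases from the annotated HIC1 start. Tall boxes are coding and low boxes are not, and the shaded stretch of 2419 bases is exonic in both genes, at the 3' end of each.

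Each line was compared with WT to ask which rows differ in the libraries labelled THUMPD2 knockout, and the lines were compared with each other. Of the 9 rows, all of which had enough reads to be tested, 3 were called in KO1 and 5 in KO2. The background was 23.6% of 14184 tested rows called in KO1 (10.4% higher and 13.3% lower) and 29.0% in KO2 (13.6% higher and 15.4% lower). AC009065.4 and SMG1 were higher and SMG6 lower in KO1, while in KO2 AC009065.4, UPF1 and SMG5 were higher and SMG6 and HIC1 lower. Called means an adjusted p under 0.05 by the edgeR quasi-likelihood test with Benjamini-Hochberg adjustment over all tested rows. SMG6 and AC009065.4 were called in both lines with the same sign, 2 of 9 against 13.5% of all rows (5.79% higher in both and 7.72% lower in both). The 2 comparisons share the WT libraries. In the mean of both lines against WT, 4 of 9 were called, against 28.3% of all rows (12.3% higher and 15.9% lower): AC009065.4, UPF1 and SMG1 were higher and SMG6 lower. In that mean the call of SMG1 (adjusted p of 0.0492 by edgeR) ended in 11 of 15 alternatives, with adjusted p-values from 0.0266 to 0.204, and that of UPF1 in 6 of 14, from 0.0155 to 0.142. In the direct comparison of KO1 with KO2, HIC1 was the 1 member called, higher in KO1, against 20.4% of all rows (10.1% higher and 10.3% lower in KO1).

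**Figure D2:**
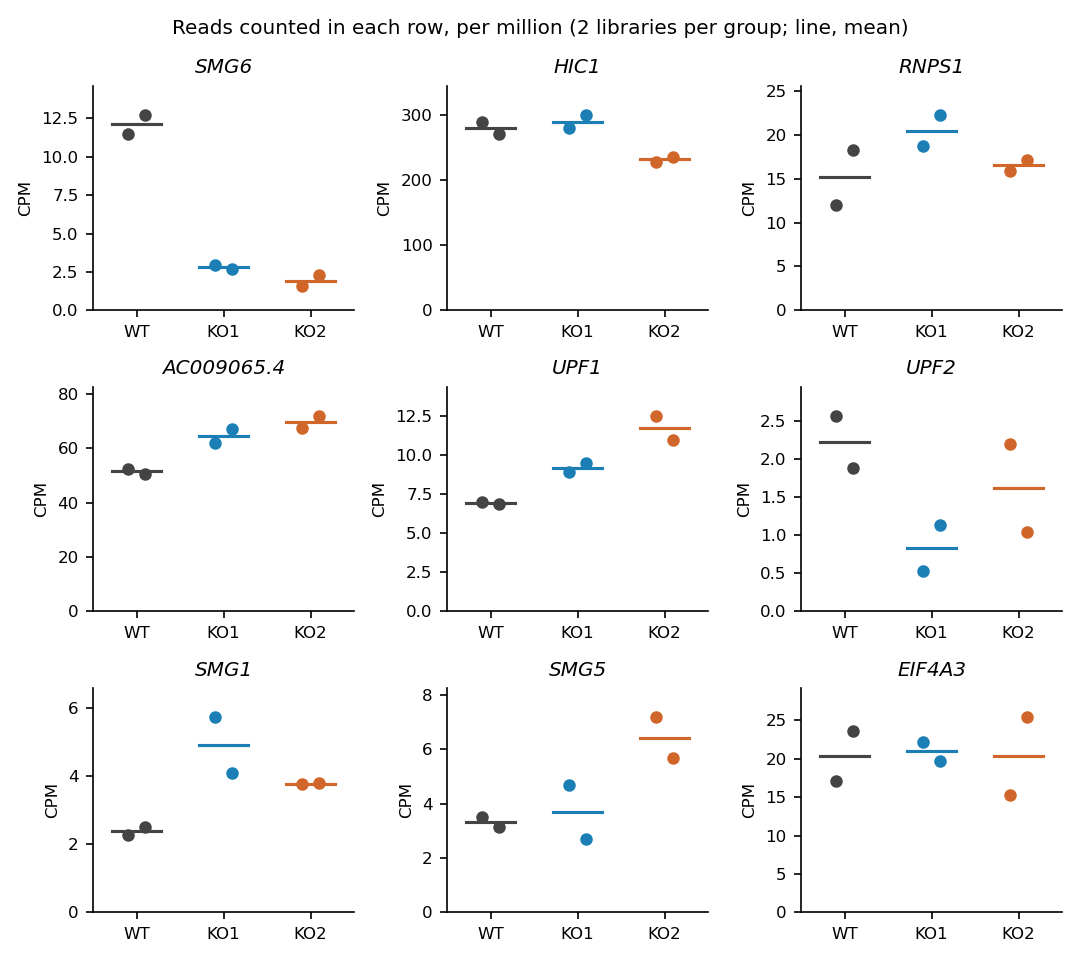
Counts scaled to the size of the library (CPM), by library, for the 9 rows, with 2 points per group and the group mean as a line, and every axis from 0. The SMG6 row is between 1.58 and 2.94 CPM in the 4 knockout libraries against 11.5 and 12.7 in WT, and the AC009065.4 row is higher in each knockout library than in WT.

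The SMG6 row fell in both lines. It held 85 and 101 reads for WT, 22 and 19 for KO1, and 13 and 20 for KO2, which is 12.06 ± 0.849 CPM (counts scaled to the library's size, mean ± SD, n = 2 libraries) in WT, 2.81 ± 0.174 in KO1 and 1.94 ± 0.515 in KO2. All 4 knockout libraries lay below both WT libraries, as they did for 18.6% of tested rows, and the smallest WT value was several times the largest knockout value. In KO1 the row fell by 2.09 ± 0.29 (log2 fold change ± SE, n = 2 against 2), 4.27-fold, with an adjusted p of 5.9e-07 by edgeR. In KO2 it fell by 2.62 ± 0.30, 6.15-fold, with an adjusted p of 9.78e-09 by edgeR. Of the 14184 rows, 71 (0.501%) were called in both lines and at least 4-fold lower in each. That cut was set with earlier results known and lies close to the KO1 value of SMG6, which was −1.99 with the 10 Mb offset. Without a cut on size, 7.72% of tested rows were lower in both lines. KO1 and KO2 were not separated from each other for this row, with a difference of 0.53 ± 0.37 and an adjusted p of 0.370 by edgeR. The authors' deposited table, which sets the 4 knockout against the 2 WT libraries, gives the SMG6 row a log2 fold change of −2.32 and a q-value of 0.00131. That table gives SMG6 a size of 3035 bases, against 10554 exonic bases in GENCODE v29, so the exons the authors counted may differ from those used here to place the overlap.

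The HIC1 row, over the last exon of the endonuclease gene SMG6, was not called in KO1 and was slightly lower in KO2. It held 2141 and 2165 reads for WT, 2091 and 2112 for KO1, and 1872 and 2033 for KO2. In CPM this was 280.1 ± 12.2 in WT, 289.0 ± 14.1 in KO1 and 231.1 ± 5.03 in KO2 (mean ± SD, n = 2 libraries). KO1 overlapped WT, and both KO2 libraries lay below the other 4, a separation whose share over all tested rows was not counted. Against WT the row was at 0.04 ± 0.07 in KO1 (95% interval −0.09 to 0.18) and not called, and in KO2 it fell by 0.28 ± 0.07, with an adjusted p of 0.00138 by edgeR. Rows of the first 10 Mb of chromosome 17 had a median log2 fold change of −0.10 in KO1 and −0.277 in KO2 (89 rows with a mean count of at least 50). With an offset for that median, the HIC1 row was at −0.000755 in KO2 and not called. HIC1 is itself among the rows that set this median and lay almost at it in KO2. Its small value with the offset therefore follows from how the offset was built. SMG6, in the same 10 Mb, was at −1.99 in KO1 and −2.34 in KO2 with the offset, and called in both. Without WT library 1 the fall of HIC1 in KO2, at −0.236, was also not called.

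The ratio of reads in these 2 rows within a library does not depend on the scaling between libraries. For each read in the SMG6 row, the HIC1 row held 25.2 and 21.4 in WT. It held 95 and 111 in KO1, and 144 and 102 in KO2. Each knockout library thus had a higher ratio than either WT library, and the KO1 and KO2 values overlapped. The 2 rows, which overlap only in part, moved apart, with the row named SMG6 much lower and the row named HIC1 within 1.21-fold of WT. How many reads of either row lie in the shared stretch is not recorded.

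The AC009065.4 row, over the start of RNPS1, rose in both lines. It held 389 and 402 reads for WT, 465 and 475 for KO1, and 555 and 621 for KO2, or 51.4 ± 1.45, 64.6 ± 3.67 and 69.6 ± 2.98 CPM (mean ± SD, n = 2 libraries). The groups of WT and knockout values did not overlap, as for 17.4% of tested rows in this direction. The row rose 1.26-fold in KO1, by 0.33 ± 0.10 on the log2 scale, with an adjusted p of 0.00958 by edgeR. In KO2 it rose 1.35-fold, by 0.44 ± 0.09, with an adjusted p of 0.000379 by edgeR. In KO1 the call ended without KO1 library 2 (0.269), without WT library 2 (0.297) and by DESeq2 (0.335), with adjusted p-values over all 16 alternatives between 0.00146 and 0.104. In KO2 it held in each of its 16 alternatives. In the authors' deposited table the row has a log2 fold change of 0.42 and a q-value of 0.0532. The row has a size of 332 bases there, against 980 exonic bases in GENCODE v29, so the exons counted may differ here too. Its stretch of chromosome 16 had medians of −0.0229 in KO1 and −0.0356 in KO2 (132 rows).

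The RNPS1 row itself, named for the splicing-coupled activator of decay, held 89 and 146 reads for WT, 140 and 157 for KO1, and 131 and 148 for KO2. The WT libraries differed more from each other than the group means did. In CPM, WT (12 and 18.3) overlapped KO2 (15.9 and 17.1), and both KO1 libraries (18.7 and 22.2) lay above WT. How often both KO1 libraries lay above WT over all tested rows was not counted. Its change was 0.43 ± 0.19 for KO1 and 0.12 ± 0.19 for KO2, neither of them called, with 95% intervals of 0.04 to 0.81 and −0.27 to 0.50. The KO1 value was called without WT library 2 (0.763) and with upper-quartile factors (0.503), and without WT library 1 it was 0.156 and not called. For each read in the RNPS1 row, the AC009065.4 row held 4.37 and 2.75 for WT, 3.32 and 3.03 for KO1, and 4.24 and 4.20 for KO2, so here the ratios of the groups overlapped.

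UPF1 encodes the helicase on which decay turns. Its row held 52 and 55 reads for WT, 67 and 67 for KO1, and 103 and 95 for KO2. Every knockout library was above both WT libraries in CPM, as for 17.4% of tested rows. The row rose 1.69-fold in KO2, by 0.75 ± 0.22, with an adjusted p of 0.00946 by edgeR, and was at 0.40 ± 0.24 in KO1, not called. The KO2 call ended by DESeq2 (0.744), without KO2 library 1 (0.665) and without WT library 2 (0.743), with adjusted p-values over the alternatives from 0.0061 to 0.0923. KO1 and KO2 differed by −0.35 ± 0.22, not called, so the lines were not shown to differ. No gene on the opposite strand shares at least 100 exonic bases with UPF1, and smaller overlaps were not listed.

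The UPF2 row, named for the adaptor between UPF1 and the exon junction complex, was close to the limit of what these counts can show. It held 19 and 15 reads for WT, 4 and 8 for KO1, and 18 and 9 for KO2. Both KO1 libraries were below WT, and KO2 overlapped WT. How often both KO1 libraries lay below WT over all tested rows was not counted. Its change was −1.41 ± 0.61 for KO1 and −0.46 ± 0.54 for KO2, neither of them called, with an interval in KO1 of −2.64 to −0.17. Rows in the same 10 Mb of chromosome 10 had medians of −0.985 in KO1 and −0.408 in KO2 (22 rows), and with that offset the UPF2 row was at −0.432 and −0.0563. Without 1 library it ran from −2.02 to −0.96 in KO1 and from −1.07 to −0.0119 in KO2.

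SMG1 encodes the kinase that phosphorylates UPF1. Its row held 17 and 20 reads for WT, 43 and 29 for KO1, and 31 and 33 for KO2. The row was higher in every knockout library than in WT, as for 17.4% of tested rows. It rose 2.05-fold in KO1, by 1.03 ± 0.36, with an adjusted p of 0.0352 by edgeR, and was at 0.65 ± 0.37 in KO2, not called. The KO1 call ended by DESeq2 (1.04), without a filter on low counts (1.04), with the 10 Mb offset (0.987), and without KO1 library 1 (0.767), WT library 1 (0.969) or WT library 2 (1.10). SMG1 has near-identical pseudogene copies on chromosome 16, and how reads that fit several copies were counted is not given in the sources used here, so this row is uncertain. AC138811.1, which lies over 171 exonic bases of SMG1, held 1249 and 1431 reads for WT, 1236 and 1079 for KO1, and 1130 and 1215 for KO2. That row was at −0.13 ± 0.07 in KO1, not called, and fell by 0.33 ± 0.07 in KO2, with an adjusted p of 0.000525 by edgeR. The SMG1 row and the row over it thus had log2 fold changes of opposite sign in each line, 1 of the pair called in each.

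SMG5 encodes the adaptor that brings phosphorylated UPF1 to deadenylation and decapping. Its row held 26 and 25 reads for WT, 35 and 19 for KO1, and 59 and 49 for KO2. Both KO2 libraries were above the other 4, and KO1 lay on both sides of WT. The share of all tested rows set apart like this in KO2 was not counted. The row rose 1.93-fold in KO2, by 0.95 ± 0.32, with an adjusted p of 0.0246 by edgeR, and was at 0.16 ± 0.35 in KO1. The KO2 call ended by DESeq2 (0.939), with the 10 Mb offset (0.799), and without KO2 library 1 (0.776), WT library 1 (1.02) or WT library 2 (0.868). In KO1 the sign turned without KO1 library 1 (−0.302).

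The EIF4A3 row, named for the core helicase of the exon junction complex, showed no change that these libraries could detect. It held 127 and 188 reads for WT, 166 and 139 for KO1, and 126 and 220 for KO2, and all 3 groups overlapped. The row was at 0.04 ± 0.19 in KO1 (95% interval −0.35 to 0.42) and 0.00 ± 0.19 in KO2 (−0.38 to 0.38). The 2 libraries of WT and of KO2 differed widely, and changes within these intervals remain compatible with the counts. Rows in the same 10 Mb of chromosome 17 had medians of −0.313 in KO1 and −0.33 in KO2 (60 rows). Over 15 alternatives, an offset for those medians among them, the row ran from −0.174 to 0.35 in KO1. In KO2 it ran from −0.407 to 0.33.

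**Figure D3:**
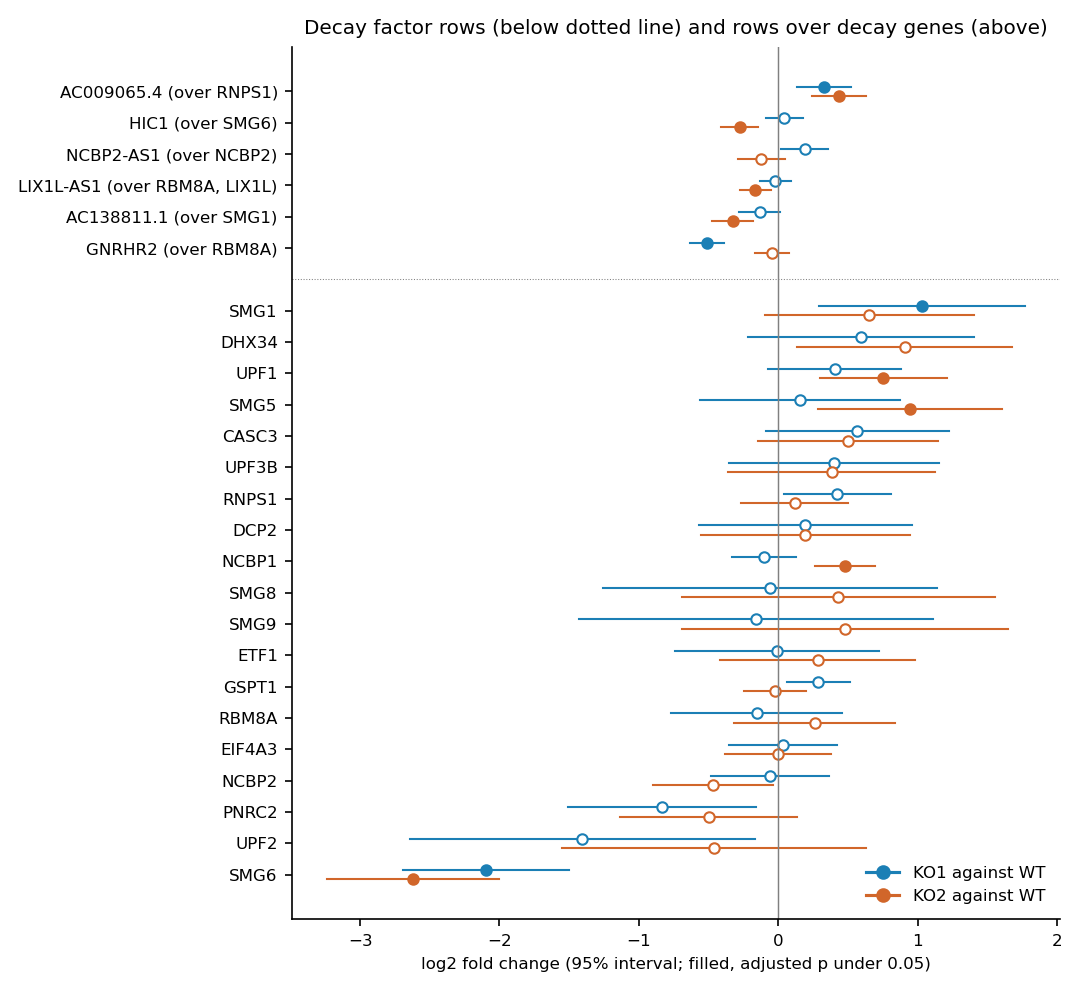
Log2 fold changes against WT with 95% intervals for 19 of the 20 tested rows of decay factors (below the dotted line) and for 6 rows over decay genes on the opposite strand (above it), KO1 in blue and KO2 in orange, filled where the adjusted p is under 0.05. SMG6, at −2.09 and −2.62, is the 1 decay factor row filled in both lines, and AC009065.4, at 0.33 and 0.44, the 1 row above the line filled in both.

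Across the pathway, 27 decay factor rows were examined, of which 20 could be tested. The list adds to the members, among others, the UPF3 paralogs, SMG8 and SMG9, the other exon junction proteins, the release factors ETF1, GSPT1 and GSPT2, the cap-binding pair NCBP1 and NCBP2, and the decapping and exonuclease steps. In KO1, SMG1 was higher and SMG6 lower. In KO2, UPF1, SMG5 and NCBP1 were higher and SMG6 lower. These 2 and 4 of 20 stand beside 23.6% and 29.0% of all tested rows. SMG6 was the 1 row lower in both lines, against 7.72% of all rows. None was higher in both by edgeR, DESeq2 or limma-voom, nor at an unadjusted p under 0.05. Beside this, 5.79% of all tested rows were higher in both by edgeR, and at least that share at the unadjusted threshold. The other 15 tested rows were called in neither line. The median of the 20 log2 fold changes was 0.10 in KO1 and 0.33 in KO2, beside 0.01 and 0.02 over all tested rows. The 7 rows not tested, UPF3A, MAGOH, MAGOHB, NBAS, GSPT2, DCP1A and XRN1, held 0 to 11 reads per library.

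NCBP1, the large subunit of the nuclear cap-binding complex, had 306 and 317 reads for WT, 302 and 248 for KO1, and 469 and 485 for KO2. It rose by 0.48 ± 0.11 in KO2, with an adjusted p of 0.000563 by edgeR, and was at −0.10 ± 0.11 in KO1. Its stretch of chromosome 9 had a median of 0.476 in KO2 and −0.0382 in KO1 (33 rows), and with that offset the row was at 0.0044 in KO2 and not called. NCBP1 is itself among those rows and lay close to their median in KO2, so this small value follows from how the offset was built.

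Apart from SMG6, RNPS1 and SMG1, the decay genes with a row over at least 100 of their exonic bases were RBM8A and NCBP2. RBM8A encodes the partner of MAGOH in the exon junction core. GNRHR2, a pseudogene row over 858 exonic bases of RBM8A and of no other gene, held 4099 and 4502 reads for WT, 2972 and 2751 for KO1, and 4422 and 4743 for KO2. Both KO1 libraries were below the other 4, a separation whose share over all tested rows was not counted. The row fell 1.42-fold in KO1, by 0.51 ± 0.06, with an adjusted p of 2.15e-08 by edgeR, was at −0.04 ± 0.06 in KO2, and differed between the lines by −0.47 ± 0.06, with an adjusted p of 1.54e-07 by edgeR. In KO1 it stayed between −0.525 and −0.328 over 16 alternatives and was called in each. LIX1L-AS1, over 541 bases of RBM8A and also over LIX1L, was at −0.02 ± 0.05 in KO1, where it was higher and called with the 10 Mb offset (0.160), and fell by 0.16 ± 0.05 in KO2, with an adjusted p of 0.0191 by edgeR. The KO2 call ended with the 10 Mb offset (−0.000212), with upper-quartile factors (−0.132), with only rows over opposite-strand exons (−0.117) and without any 1 of the WT or KO2 libraries. LIX1L-AS1 is itself among the 25 rows that set that offset and lay almost at their KO2 median of −0.164. AC243547.3, the third row over RBM8A, had no reads. The RBM8A row, with 30 to 60 reads per library, was at −0.16 and 0.26 and not called.

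NCBP2 encodes the cap-binding subunit itself. NCBP2-AS1, over 142 of its exonic bases, was at 0.19 ± 0.08 in KO1 and −0.12 ± 0.08 in KO2, called in neither line against WT. It was called in KO1 with the 10 Mb offset (0.326), with upper-quartile factors (0.264), with only rows over opposite-strand exons (0.234) and without KO1 library 2 (0.239). The NCBP2 row was at −0.06 and −0.47, also not called.

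Among 12 transcripts known to be removed by nonsense-mediated decay or raised when it is blocked, 10 rows could be tested and none was called in both lines by edgeR, DESeq2 or limma-voom, beside 13.5% of all tested rows by edgeR. At an unadjusted p under 0.05 none passed in both lines, 1 was higher in KO1 and 1 lower in KO2. Rows called at the adjusted threshold pass this one too. Of all tested rows at least 13.5% therefore pass in both lines, at least 10.4% are higher in KO1 and at least 15.4% lower in KO2. Where reads are counted on the opposite strand, rows named for these transcripts do not hold their reads. The levels of the transcripts themselves were then not tested by these rows. The row called in KO2 was NAT9, with 24 and 10 reads for WT, 10 and 12 for KO1, and 3 and 7 for KO2, at −0.55 in KO1 and −1.89 ± 0.65 in KO2 (adjusted p of 0.0251 by edgeR). That call ended by DESeq2 (−1.94) and limma-voom (−1.74), with the 10 Mb offset (−1.35), and without KO2 library 1 (−1.44) or WT library 1 (−1.07). ZFAS1, a noncoding host of small nucleolar RNAs, had a row at 0.30 and 0.58, not called in either line. ZNFX1, which lies over 249 exonic bases of ZFAS1 and also over exons of DDX27, held 2669 and 2856 reads for WT, 3542 and 3304 for KO1, and 4668 and 5029 for KO2. The groups did not overlap, and every knockout library lay above WT in CPM, as for 17.4% of tested rows. The row rose by 0.39 ± 0.06 in KO1 and 0.68 ± 0.06 in KO2, with adjusted p-values of 4.27e-06 and 2.56e-11 by edgeR.

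Of 10 genes reported as targets of the HIC1 repressor, 4 had rows that could be tested. None was called in either line by edgeR, DESeq2 or limma-voom, and at an unadjusted p under 0.05 none passed in KO1 and 1 was lower in KO2. Of all tested rows 23.6% and 29.0% were called in KO1 and KO2 by edgeR, and at least these shares pass the unadjusted threshold. Here too, where reads are counted on the opposite strand, the rows do not hold the transcripts of the genes they are named for. EFNA1, an ephrin ligand, had 54 and 62 reads in WT and 40 to 43 in each knockout library, at −0.45 ± 0.27 and −0.60 ± 0.27. Its 4 knockout libraries lay below both WT libraries in CPM, as for 18.6% of tested rows. CCND1, the cyclin of the G1 phase, had a row at 0.23 and 0.43. LTO1, over 497 exonic bases of CCND1 and of no other gene, held 1031 and 1134 reads for WT, 1637 and 1515 for KO1, and 1342 and 1401 for KO2. It rose by 0.62 ± 0.07 in KO1 and 0.21 ± 0.07 in KO2, with adjusted p-values of 6.66e-09 and 0.0224 by edgeR, and the KO2 call ended by DESeq2 (0.196), without a low-count filter (0.191) and without any 1 of the WT or KO2 libraries.

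Within 200 kb of HIC1, 7 other rows could be tested, and SMG6 was the 1 lower in both lines, beside 7.72% of all tested rows. In KO1 2 of the 7 were called, beside 23.6%, and in KO2 3, beside 29.0%. AC090617.5, which starts at 2043475, had 46 and 52 reads for WT, 19 and 27 for KO1, and 38 and 33 for KO2, and fell by 1.00 ± 0.32 in KO1, with an adjusted p of 0.0206 by edgeR. AC090617.3, over DPH1 and OVCA2, fell by 0.19 ± 0.06 in KO2 (adjusted p of 0.0195 by edgeR), and AC130689.1, a processed pseudogene row, uncertain where near-identical copies share reads, fell by 1.98 ± 0.49 there (adjusted p of 0.00163 by edgeR). DPH1, AC099684.1 and RPA1 were called in neither line. The 7 rows, SMG6 included, had medians of −0.12 in KO1 and −0.28 in KO2.

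Within 200 kb of RNPS1, 27 other rows could be tested. AC009065.4 was the 1 higher in both lines, and TRAF7 (−0.78 and −0.52) and AC009065.5 (−1.13 and −1.68) were lower in both, counts near the shares over all tested rows of 5.79% and 7.72%. TRAF7 and AC009065.5 are named because they complete this count, after their values were seen. Nearer to RNPS1, ECI1, DNASE1L2 and E4F1 were higher in KO2, at 0.99, 0.99 and 0.80, and were at 0.45, 0.30 and −0.14 in KO1, not called. AC009065.1 was higher in KO2 at 0.29 and AC009065.8 lower at −0.30. AC009065.7, over PGP, was lower in KO1 at −0.51. ABCA3, PGP and BRICD5 were called in neither line.

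**Figure D4:**
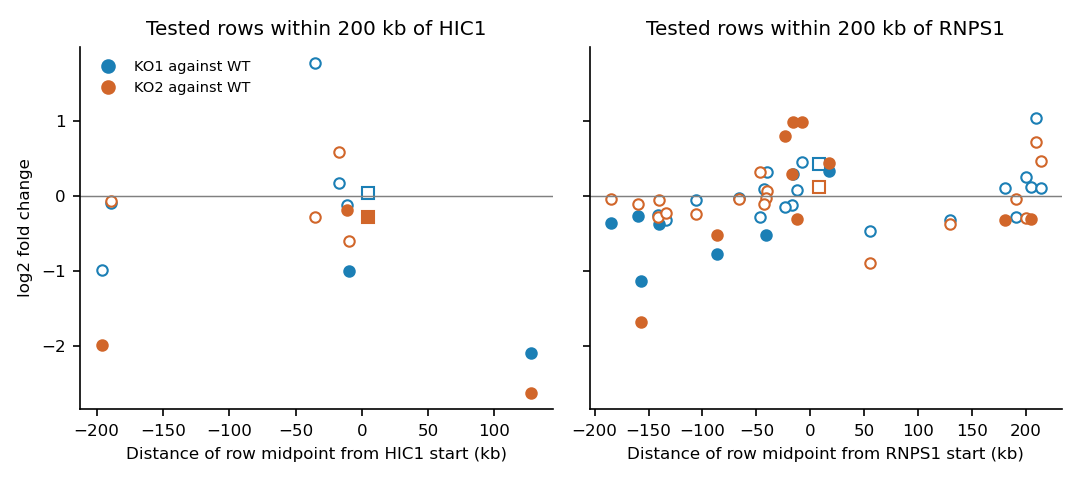
Log2 fold changes against WT of the tested rows within 200 kb of HIC1 (left) and RNPS1 (right), by distance of the row's midpoint from the start coordinate of that gene in kb, KO1 in blue and KO2 in orange, filled where the adjusted p is under 0.05. Squares are HIC1 and RNPS1 themselves, SMG6 stands lowest on the left, and it is plotted far from HIC1 because its midpoint is.

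The rows whose pattern over the 6 libraries was nearest to SMG6 were found by the root mean square difference of centred log2 CPM, among 6425 rows with a mean count of at least 50. AC004080.2, over HOXA11-AS, was nearest at 0.162, falling from 649 and 702 reads for WT to 210 and 174 for KO1, and 144 and 178 for KO2. PDXK, named for pyridoxal kinase, followed at 0.204, ERCC2, over the kinesin light chain gene KLC3, at 0.230, AP003396.3, over the deubiquitinase gene USP2, at 0.238, and HOTAIRM1, a noncoding RNA of the HOXA cluster, at 0.267. These 5 rows fell by 1.58 to 2.41 in KO1 and by 2.09 to 2.37 in KO2. Nearest to AC009065.4 were GDPGP1, over CIB1, at 0.0365, AL355312.2 at 0.0368 and UNC45A, over HDDC3, at 0.039. They rose by 0.32 to 0.33 in KO1 and 0.44 to 0.48 in KO2. The rows of both sets were picked for their likeness over these same libraries, so changes of similar size follow from the choice.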

How the data were processed

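What the authors deposited for the 6 libraries are raw counts of reads, with a gene symbol on each row, per the file headers. The submitters' processing notes name STAR 2.7.1a, HTSeq 0.6.1p1, Trim Galore and limma, and the builds hg38 and GRCh38.p6. Neither the strand setting of the counting nor the annotation version is given in the sources used here, and the library kit keeps strand, per the labels' protocols. The authors' deposited table also holds FPKM, log2 fold changes, p-values and q-values, of which the log2 fold changes, q-values and gene sizes are quoted. Its sizes equal the GENCODE v29 exonic bases for HIC1 (8108) and UPF1 (8600). They are smaller for other rows besides SMG6 and AC009065.4, such as UPF2 (1286 against 5906) and GNRHR2 (888 against 2511), and larger for EIF4A3 (5780 against 4967).

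Counts were fitted with edgeR 4.0.16 in R 4.3.3: glmQLFit on all 3 groups, TMM factors, and the 14184 rows that filterByExpr kept, with 3 residual and 31.9 prior degrees of freedom. SE is the log2 fold change divided by the square root of F, and CPM use TMM-scaled library sizes. The fit was also run on data simulated with 1 spread for all rows and groups, so that run does not cover unequal spread. The 2 libraries of KO1 differed more (chi-square per degree of freedom of 3.62) than those of WT (2.32) or KO2 (2.19). The fit shares its estimate of spread among the groups. Symbols gave 56239 of the 59087 rows a place in GENCODE v29 (GRCh38), and other symbols of the same gene 324 more. A RefSeq promoter entry exists for 7 members and was not used.

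Members, lists and tests were chosen with earlier results of these data known. Named rows were all members, rows over decay genes, list members called (otherwise the 2 of smallest p), the nearest neighbours within 200 kb and the nearest patterns. As alternatives, normalization used RLE or upper-quartile factors, the test was DESeq2 1.42.0 or limma-voom (limma 3.58.1), and the count filter was dropped or changed. Further fits had a replicate block, only the groups compared, an offset by the median of the 10 Mb bin, only rows over opposite-strand exons, or each library left out. A row with a mean count of at least 50 helped to set the median of its own bin. Values of 1 further decay factor row and of 1 row over a transcript sensitive to decay are not reported here.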

Additional observations from a re-analysis of the deposited data

Results flagged for a closer look

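Of 65 rows examined, 17 differed between KO1 and KO2 by the edgeR quasi-likelihood test of that difference, beside 20.4% of all tested rows. Values are log2 fold changes of KO1 against KO2, n = 2 against 2. Among the members this was HIC1, at 0.322. It was 0.146 with the 10 Mb offset and not called. Among decay factors it was NCBP1, at −0.582 (−0.0682 with the offset, not called), and GSPT1, at 0.311, which was not called by DESeq2 (0.327), with the offset (0.261), with a replicate block (0.311) or without any 1 of the knockout libraries. Among rows over decay genes it was GNRHR2, over RBM8A, at −0.465, and NCBP2-AS1, over NCBP2, at 0.310, the second not without KO2 library 1 (0.167). Among the transcripts sensitive to decay and the reported HIC1 targets, or rows over them, it was UPP1, at 1.29 (named, like GSPT1, after its values were seen, and not called by DESeq2, or without KO1 library 1 or either KO2 library), ZNFX1 at −0.288 and LTO1 at 0.414.

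Near HIC1 the row AC099684.1 differed by 2.05, with 6 and 4 reads for WT, 21 and 12 for KO1, and 5 and 4 for KO2. Near RNPS1 the differences were 0.379 for AC009065.8, −0.696 for DNASE1L2, −0.413 for AC009065.1, −0.944 for E4F1, −0.482 for AC009065.7 and 0.200 for BRICD5. Of the rows patterned like SMG6, AC004080.2 differed by 0.468 and PDXK by 0.572.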

How the results depend on the processing

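The SMG6 row kept its direction and call in both lines under all 16 alternatives, from −2.17 to −1.99 in KO1 and −2.91 to −2.34 in KO2. AC009065.4 kept its call in KO2 (0.398 to 0.488), and in KO1 lost it by DESeq2 (0.335), and in 2 of the 6 fits without 1 library, which ranged from 0.269 to 0.385. With the 10 Mb offset, which could be computed for 10502 rows, calls numbered 2106 in KO1, 2376 in KO2, 1075 in both lines, 2359 in the mean of both lines and 1713 between the lines. Without the offset those rows gave 2578, 3113, 1500, 3042 and 2147, and all 14184 rows gave 3350, 4118, 1916, 4009 and 2889. With only the 6365 rows over opposite-strand exons the calls were 2222 in KO1, 2610 in KO2 and 2471 in the mean. With upper-quartile factors 55.6% of KO1 calls were higher, against 43.9% with TMM, and 53.1% of calls in both lines against 42.8%. The DESeq2 calls were 2246 in KO1, 1279 in both lines and 1995 between the lines.

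Same-numbered libraries did not deviate together, with correlations between −0.0286 and −0.0206, so the numbers were not taken as pairs. With the replicate block 1822 rows were called in both lines, SMG6 and AC009065.4 included, and GSPT1 between the lines (0.311) was not called. Decay factor rows higher in KO1 numbered 1, and 3 with upper-quartile factors or without WT library 2, 2 with RLE factors or without KO1 library 2, and 0 by DESeq2, without a filter, with the offset, or without KO1 library 1 or WT library 1. In KO2 there were 3, and 1 by DESeq2, with the offset, or without KO2 library 1 or WT library 2, 2 without WT library 1, 4 without KO2 library 2, and 0 with only rows over opposite-strand exons, where fewer rows are tested.

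Of the values that changed sign, LIX1L-AS1 in KO1 was called in the new direction with the 10 Mb offset (0.160, adjusted p of 0.038 by edgeR), and the cause was not tested. With the 10 Mb offset they were GNRHR2 in KO2 (0.121), HIC1 in the mean (0.0722), LIX1L-AS1 in KO1 and the mean (0.0797), NCBP1 in the mean (−0.0297) and NCBP2-AS1 in KO2 (0.0167). With upper-quartile factors they were GSPT1 in KO2 (0.0111) and LIX1L-AS1 in KO1 (0.0552). With only rows over opposite-strand exons they were GNRHR2 in KO2 (0.00505) and LIX1L-AS1 in KO1 (0.0247). EIF4A3 in KO2, near 0, was at −0.0105 with RLE factors and by DESeq2, −0.0267 by limma-voom, −0.0149 without a filter, −0.000567 with the CPM filter and −0.00851 with the block. Without 1 library, values of both signs were found for EIF4A3 in KO1 (−0.174 to 0.286), in KO2 (−0.407 to 0.324), in the mean (−0.192 to 0.270) and between the lines (−0.288 to 0.443), GSPT1 in KO2 (−0.136 to 0.103), HIC1 in KO1 (−0.00757 to 0.0926), LIX1L-AS1 in KO1 (−0.0569 to 0.0123), NAT9 in KO1 (−1.09 to 0.266), NCBP2-AS1 in KO2 (−0.264 to 0.0212) and the mean (−0.0381 to 0.105), RNPS1 in KO2 (−0.152 to 0.461) and SMG5 in KO1 (−0.302 to 0.490). Low counts limit UPF2, SMG1 and SMG5, with 4 to 59 reads per library. Fits without 1 library leave 1 group with a lone library, assumed to vary like the others.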
